A study of Mus musculus with 18 samples.

Results

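The genes described here turn tryptophan into kynurenine and read its products through the aryl hydrocarbon receptor. They are 10 genes given by name: the dioxygenases Ido1, Ido2 and Tdo2, the kynurenine-handling enzymes Kmo and Kynu, the receptor gene Ahr, its repressor gene Ahrr, and the receptor's target genes Cyp1a1, Cyp1b1 and Tiparp. All 10 were found by symbol among the 57010 gene IDs of each tissue's count table, of which 52029 (91.3%) carried a symbol. They were chosen by name and not by a level or threshold, but with earlier genotype differences in counts of the same libraries known. The genotype differences below therefore describe these libraries and are not independent evidence on the pathway.

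RNA sequencing counts of total RNA were read for 18 libraries of mouse uterus and ovary, in 6 groups of 3: ARE-/- (homozygous), ARE+/- (heterozygous) and wild-type (WT) animals for each tissue. All groups were of strain C57B6/J and aged 20 to 25 weeks. The series concerns failed implantation and CD8 T cells in mice with excess interferon gamma. As background, ARE is the AU-rich element that shortens the life of the interferon gamma transcript, a reading of the genotype name that the labels do not spell out. Which tissues share a mouse and the stage of the estrous cycle are not labelled, and 2 libraries, replicate 1 of WT uterus and replicate 6 of ARE-/- ovary, are labelled as backups. Values of single libraries are listed by ascending replicate number, which runs 1, 2 and 3 except in ARE-/- ovary (2, 3 and 6) and ARE+/- ovary (1, 2 and 4).

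Ifng followed the genotype labels, at 2.49 ± 0.749 CPM (counts scaled to the same library size) in ARE-/-, 1.32 ± 0.540 CPM in ARE+/- and 0.0784 ± 0.0687 CPM in WT uterus, and at 1.16 ± 0.171, 0.467 ± 0.252 and 0.0675 ± 0.0585 CPM in ARE-/-, ARE+/- and WT ovary (SD, n = 3 each). Depth ranged over 33185496 to 49720354 counts for uterus libraries, and over 38132822 to 46647171 counts for ovary libraries. The tissue labels held: 5 uterine markers summed to 178 to 818 CPM in uterus and 28.2 to 132 CPM in ovary libraries, and 6 ovarian markers summed to 16.4 to 229 CPM in uterus and 1656 to 9682 CPM in ovary libraries. Uterus ARE-/- replicate 1 stood apart. It had the lowest uterine sum (178 CPM), the only ovarian sum above 25.5 CPM (229 CPM, with Inha at 141 CPM), 6352 CPM of 5 adipocyte markers and 7257 CPM of 5 erythroid markers. Uterus WT replicate 2 stood apart from the other 2 WT uteri in Cyp1b1, Tiparp and Tdo2, as given below. In bulk tissue, more cells of a type and more RNA per cell cannot be told apart.

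Ido1, Ido2 and Tdo2 encode the enzymes that open the tryptophan ring, and Ido1 is a classical target of interferon gamma. The resulting kynurenine is hydroxylated by the product of Kmo or cleaved by that of Kynu, and kynurenine and some of its products are ligands of the aryl hydrocarbon receptor. The bound receptor enters the nucleus, pairs with Arnt and induces genes such as Cyp1a1 and Cyp1b1 (monooxygenases), Ahrr (a repressor that competes with the receptor) and Tiparp (an ADP-ribosyltransferase that also restrains it).

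The receptor and Arnt recognise the letters GCGTG, and the stretches before the start of the 4 target genes that Ido1 is set against below are shown to place these letters. Sequences are the 250 bases before the annotated start, from RefSeq (build GRCm38.p6), each written 5′ to 3′ along the gene's own strand, with the 5 letters in capitals as GCGTG, or as CACGC where the motif lies on the opposite strand. The Ahrr stretch is chr13:74292332-74292581 (minus strand), that of Cyp1a1 is chr9:57697363-57697612 (plus), that of Cyp1b1 is chr17:79715062-79715311 (minus) and that of Tiparp is chr3:65528197-65528446 (plus). Gene positions given with the results follow instead the GENCODE M32 annotation of the count tables, which is on a later build, so the 2 kinds of position cannot be set side by side.
Ahrr: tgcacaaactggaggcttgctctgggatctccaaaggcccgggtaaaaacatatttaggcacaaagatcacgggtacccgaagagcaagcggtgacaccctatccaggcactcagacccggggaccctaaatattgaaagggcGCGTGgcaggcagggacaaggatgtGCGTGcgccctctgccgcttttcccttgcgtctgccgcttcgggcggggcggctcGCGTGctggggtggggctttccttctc
Cyp1a1: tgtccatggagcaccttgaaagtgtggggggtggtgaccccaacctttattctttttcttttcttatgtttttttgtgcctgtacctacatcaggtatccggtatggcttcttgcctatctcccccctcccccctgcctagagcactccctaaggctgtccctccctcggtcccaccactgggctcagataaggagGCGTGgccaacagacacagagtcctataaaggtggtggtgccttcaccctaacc
Cyp1b1: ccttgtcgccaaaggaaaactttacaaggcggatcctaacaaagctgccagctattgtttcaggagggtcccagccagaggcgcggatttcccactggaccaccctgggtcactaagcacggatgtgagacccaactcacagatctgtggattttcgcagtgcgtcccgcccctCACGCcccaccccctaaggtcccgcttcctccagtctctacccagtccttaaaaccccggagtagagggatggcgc
Tiparp: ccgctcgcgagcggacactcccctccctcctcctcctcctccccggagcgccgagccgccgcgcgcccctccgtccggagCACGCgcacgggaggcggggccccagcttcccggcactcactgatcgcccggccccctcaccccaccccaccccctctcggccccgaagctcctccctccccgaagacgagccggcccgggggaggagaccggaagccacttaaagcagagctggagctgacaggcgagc
Ahrr held 3 copies, 107, 82 and 27 bases before the start, Cyp1a1 held 1 at 54 bases, Cyp1b1 held 1 at 76 bases and Tiparp held 1 at 170 bases. Tdo2 held 1 on the opposite strand at 194 bases, and Kmo held none in this window. Of all 32851 promoters in the same table, 28.2% held at least 1 copy on either strand, 8.63% held 2 or more and 2.77% held 3 or more. A match of 5 letters is a description of the sequence and not a binding site. Promoter sequences of 6 of the 10 genes were matched, and those of Ido1, Ido2, Kynu and Ahr were not.

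Per length of exon, Tiparp and Ahr were among the 3 genes with the highest mean level in every group, and the dioxygenases stood low in WT tissue. In WT uterus the mean level was highest for Tiparp (10.4 ± 4.12 CPM per kb), then Ahr (4.64 ± 0.194), Cyp1b1 (2.14 ± 3.44) and Kmo (1.01 ± 0.0280 CPM per kb), with the other 6 genes at 0.0371 to 0.222 CPM per kb. The place of Cyp1b1 there rests on replicate 2 (31.8 CPM, against 0.857 and 0.762 CPM in the other WT uteri). In ARE+/- uterus Ido1 (1.43 ± 0.918 CPM per kb) ranked 3, ahead of Cyp1b1 (0.998 ± 0.319) and Kmo (0.864 ± 0.259). In ARE-/- uterus Ido1 ranked 4 (2.45 ± 0.861 CPM per kb) and Cyp1a1 ranked 5 (1.82 ± 1.54), each within the other's SD. Cyp1b1 above them (3.71 ± 3.29 CPM per kb) had an SD that covered both. In WT ovary Cyp1b1 led (54.1 ± 6.94 CPM per kb), then Tiparp (19.2 ± 1.59), Ahr (4.63 ± 0.559) and Kmo (0.489 ± 0.0109), and Cyp1a1 came last (0.00611 ± 0.0106 CPM per kb). In ARE-/- ovary Cyp1a1 ranked 4 (1.44 ± 2.01 CPM per kb) and Ido1 ranked 5 (1.03 ± 0.371), a gap smaller than the SD of Cyp1a1.

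**Figure D1:**
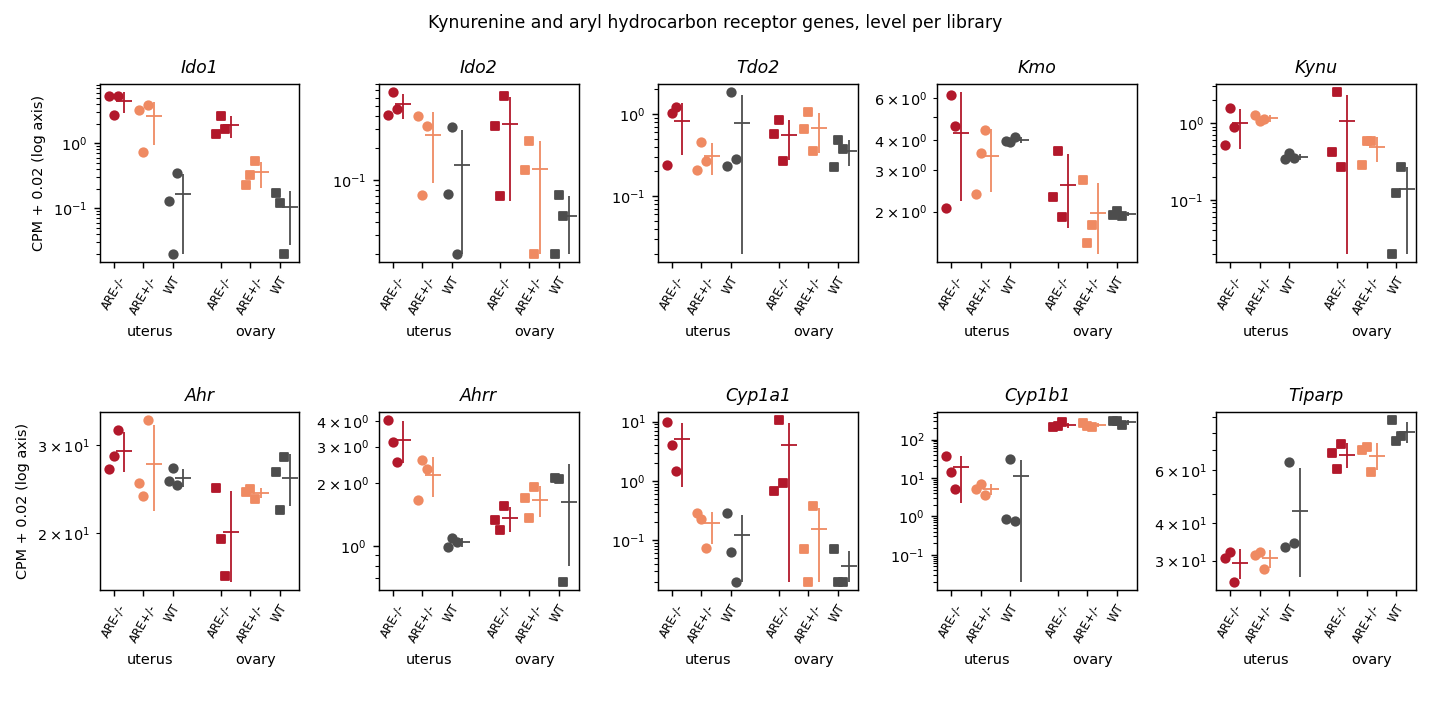
Level of each of the 10 genes in each library, as CPM plus 0.02 on a log axis, for ARE-/-, ARE+/- and WT animals in uterus (circles) and ovary (squares). Points are libraries, horizontal ticks are means and vertical lines are 1 SD over 3 libraries, ended at the axis floor where the mean minus SD falls below 0. Ido1 and Cyp1a1 lie above WT in all 3 ARE-/- libraries of both tissues, while Cyp1b1 is high in all ovaries and spans 0.762 to 31.8 CPM among the 3 WT uteri.

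The first question was which of these genes differ between genotypes. Differences were tested over all genes of a tissue with edgeR's quasi-likelihood test and Benjamini-Hochberg adjustment, and a gene is written as rising or falling where the adjusted p was under 0.05; the value after ± is the SD for a level and the standard error for a log2 fold change. In ARE-/- against WT uterus 3 of the 10 genes rose (Ido1, Ahrr and Cyp1a1) and 0 fell, where 3.36% of all genes tested rose and 0.391% fell. In ARE-/- against WT ovary 2 of 9 genes rose (Ido1 and Cyp1a1) and 0 fell, where 6.31% of all genes rose and 4.15% fell; Ido2 did not pass the low-count filter there. The median log2 difference was 1.14 over the 10 genes and 0.04 over all genes in the uterus, and 0.41 over the 9 genes and 0.02 over all genes in the ovary. Between ARE+/- and WT 0 members were called in either tissue, where edgeR called 1.08% of genes as rising and 0.0535% as falling in the uterus, and 1.35% and 0.356% in the ovary. At an unadjusted p under 0.05 there were 3 members in the uterus and 2 in the ovary, where 14.1% and 15.7% of all genes passed, and DESeq2 called 2 and 0 members, where it called 4.95% and 5.76% of all genes. Between ARE-/- and ARE+/- 0 members were called, and 0% of genes in the uterus and 0.0491% in the ovary were. At an unadjusted p under 0.05 there were 1 and 2 members (4.87% and 8.39% of all genes), and with DESeq2 1 in each tissue (0.734% and 0.975% of all genes).

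**Figure D2:**
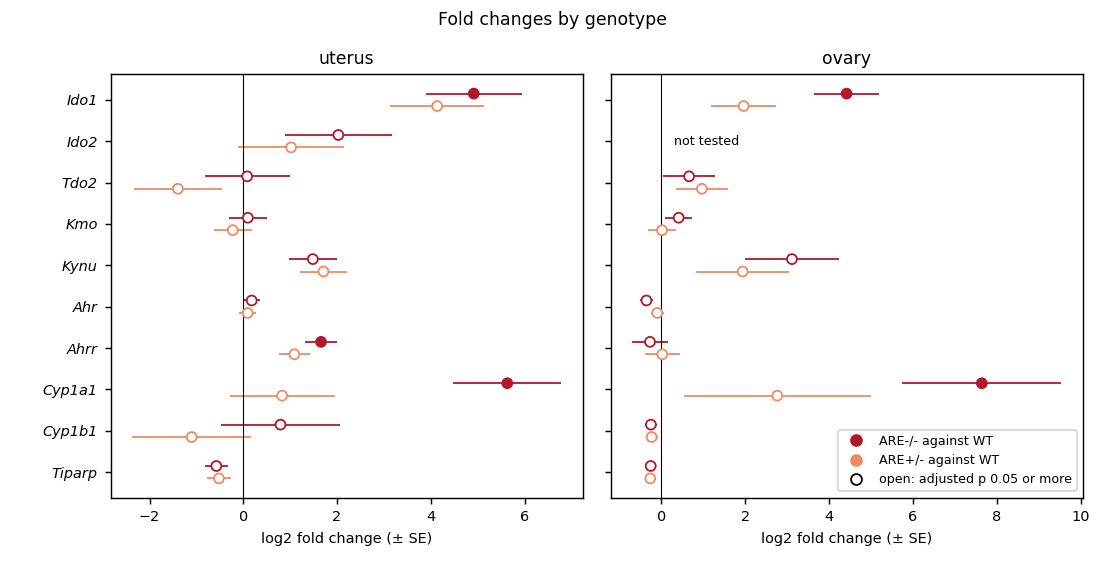
Log2 fold change with its standard error for each gene, ARE-/- against WT (dark red) and ARE+/- against WT (orange), in uterus and ovary. Filled points have an edgeR adjusted p under 0.05: Ido1, Ahrr and Cyp1a1 in the uterus and Ido1 and Cyp1a1 in the ovary, all for ARE-/- animals.

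Ido1 rose in both tissues of ARE-/- mice. The gene (ENSMUSG00000031551.13) lies on chromosome 8, 25074152 to 25087025, minus strand, with 1825 bases of exon in the annotation of the files. Uterus counts were 194, 110 and 180 for ARE-/- mice, 168, 28 and 142 for ARE+/- mice, and 4, 0 and 14 for WT mice. Ovary counts were 54, 104 and 66 for ARE-/- mice, 8, 14 and 20 for ARE+/- mice, and 6, 4 and 0 for WT mice. All ARE-/- and all ARE+/- libraries of a tissue lay above all WT libraries of it. In the ovary the ARE-/- libraries also lay above the ARE+/- libraries, and in the uterus these 2 genotypes overlapped. Among all genes, ARE-/- libraries lay wholly above WT for 12.5% (uterus) and 16.1% (ovary), ARE+/- libraries wholly above WT for 15.6% and 14.7%, and ARE-/- wholly above ARE+/- for 4.77% and 6.33%. The WT libraries without a count allowed up to 0.0662 CPM in the uterus and 0.0772 CPM in the ovary, taking 3 counts as the limit that a count of 0 allows. Such limits and the counting intervals below cover counting error only, and they take the mates of a read pair, usually both counted, as independent.

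Mean Ido1 levels were 4.48 ± 1.57 CPM in ARE-/-, 2.60 ± 1.68 in ARE+/- and 0.147 ± 0.170 in WT uterus, and 1.88 ± 0.677, 0.340 ± 0.156 and 0.0850 ± 0.0780 CPM in ARE-/-, ARE+/- and WT ovary (SD, n = 3 each). For ARE-/- against WT the log2 fold change was 4.92 ± 1.02 in uterus (edgeR adjusted p = 0.0300) and 4.42 ± 0.77 in ovary (adjusted p = 0.0080). The ARE+/- values, 4.13 ± 1.00 in uterus (adjusted p = 0.088) and 1.96 ± 0.78 in ovary (adjusted p = 0.256), were not called by edgeR, and DESeq2 called the uterus value (4.15, adjusted p = 6.78e-05). ARE-/- against ARE+/- gave 0.78 ± 0.83 in uterus (adjusted p = 0.986) and 2.45 ± 0.67 in ovary (adjusted p = 0.414; 2.47 and 0.0100 with DESeq2). The uterus call was lost without ARE-/- replicate 1 (4.76, adjusted p = 0.0565), ARE-/- replicate 3 (4.72, 0.0641), ARE+/- replicate 1 (4.91, 0.0580), WT replicate 1 (4.74, 0.164) or WT replicate 3 (6.40, 0.0612), and with the ARE+/- libraries left out of the fit (4.91, 0.0651). The ovary call held with any 1 library left out, at adjusted p from 0.00939 to 0.0300. The authors' deposited table gives Ido1 an adjusted p of 4.06e-05 in the uterus and 1.49e-08 in the ovary for any difference among genotypes.

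Marker transcripts of immune cells were also at higher levels in ARE-/- tissue. The 7 dendritic cell markers summed to 62.7 to 128 CPM in ARE-/-, 79.0 to 106 in ARE+/- and 45.0 to 59.8 CPM in WT uterus, and to 83.4 to 154, 75.3 to 120 and 54.2 to 69.6 CPM in ARE-/-, ARE+/- and WT ovary. The 6 macrophage markers summed to 948 to 1635, 721 to 959 and 367 to 458 CPM in ARE-/-, ARE+/- and WT uterus, and to 486 to 989, 497 to 582 and 304 to 399 CPM in ARE-/-, ARE+/- and WT ovary. The 5 T cell markers summed to 57.1 to 72.5, 20.2 to 24.1 and 7.72 to 7.93 CPM in ARE-/-, ARE+/- and WT uterus, and to 24.7 to 56.0, 12.7 to 19.7 and 4.75 to 5.62 CPM in ARE-/-, ARE+/- and WT ovary. No marker of these 3 lists was at 0 in any library, and the ARE-/- sums lay above the WT sums in both tissues. Their part in the Ido1 difference was not tested.

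The genes whose level was most like that of Ido1 over the 9 libraries of a tissue differed between uterus and ovary. Among the 18802 uterus genes averaging 1 CPM or more, Pearson's r of log2 CPM with Ido1 was highest for A430088P11Rik (0.963), Gm12250 (0.957), St6galnac1 (0.955), Slfn1 (0.955) and Gbp2b (0.954). Gbp2b encodes an interferon-inducible guanylate-binding protein. Among 19120 genes in the ovary it was highest for Mettl23 (0.986), Ccl19-ps3 (0.972), Irf9 (0.969) and Cd3e (0.969); Irf9 encodes a subunit of an interferon-activated transcription factor and Cd3e a chain of the T cell receptor complex. These 9 libraries differ in genotype, so these values describe likeness over genotypes as well as within them, and Ccl19-ps3 cannot be told apart from near-identical Ccl19 copies, since the counting let 1 read count for several genes.

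The other ring-opening enzymes, Ido2 and Tdo2, had levels of up to 1.81 CPM and were not called. Ido2, the Ido1 paralogue beside it on chromosome 8 (25022470 to 25066349, minus strand), had 14, 27 and 15 counts in ARE-/- uterus, 20, 2 and 11 in ARE+/- uterus and 2, 14 and 0 in WT uterus. The ARE-/- libraries lay above both other genotypes, by CPM and closely (0.388 CPM for the lowest ARE-/- library, 0.378 CPM for the highest ARE+/- and 0.299 CPM for the highest WT library), and the log2 fold change against WT was 2.03 ± 1.14 (adjusted p = 0.362). Of all genes, 12.5% lay wholly above WT and 4.77% wholly above ARE+/- in ARE-/- uteri. In the ovary Ido2 had 12, 2 and 24 counts in ARE-/-, 4, 10 and 0 in ARE+/-, and 0, 2 and 1 in WT libraries. With 3 WT counts in all, the ratio of levels was 12.2 for ARE-/- over WT (95% counting interval 3.87 to 61.8), and 4.42 for ARE+/- over WT (1.23 to 24.0). ARE-/- replicate 3, at 2 counts, matched the highest WT ovary, so the groups overlapped.

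Tdo2, the dioxygenase of liver and decidua, lies on chromosome 3 (81864397 to 81883509, minus strand). Uterus counts were 8, 42 and 40 in ARE-/-, 10, 17 and 9 in ARE+/-, and 8, 85 and 11 in WT uterus, with WT replicate 2 the highest of the 9. Ovary counts were 22, 32 and 10 in ARE-/-, 24, 48 and 13 in ARE+/-, and 8, 18 and 14 in WT libraries. All groups overlapped. ARE-/- against WT gave a log2 fold change of 0.08 ± 0.90 in uterus (adjusted p = 0.975) and 0.66 ± 0.62 in ovary (adjusted p = 0.546), and the uterus value without WT replicate 2 was 1.75 (adjusted p = 0.271).

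Of the enzymes that take kynurenine further, Kynu had its higher values in mutant tissue, uncalled by edgeR, and Kmo showed no called difference between genotypes. Kynu, kynureninase (chromosome 2, 43445341 to 43572734, plus strand), had 18, 64 and 29 counts in ARE-/-, 67, 41 and 40 in ARE+/-, and 12, 18 and 14 in WT uterus. Every ARE-/- and ARE+/- uterus lay above every WT uterus, as for 12.5% (ARE-/-) and 15.6% (ARE+/-) of all genes. Mean levels were 0.972 ± 0.532, 1.14 ± 0.114 and 0.346 ± 0.0331 CPM in ARE-/-, ARE+/- and WT uterus (SD, n = 3 each). Log2 fold changes were 1.48 ± 0.51 for ARE-/- (adjusted p = 0.146) and 1.71 ± 0.51 for ARE+/- against WT (adjusted p = 0.159; 0.0447 with DESeq2). With uterus ARE-/- replicate 1 and WT replicate 2 both left out, an alternative added after the data were seen, the values were 1.89 (adjusted p = 0.0463) and 1.80 (adjusted p = 0.0461). That fit called 13.3% of all genes for ARE-/- and 12.7% for ARE+/- against WT.

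In the ovary Kynu had 16, 98 and 10 counts in ARE-/-, 10, 26 and 22 in ARE+/-, and 0, 4 and 10 in WT libraries. ARE-/- replicate 3 stood far above the rest, and ARE-/- replicate 6 was within the WT range by CPM. The 3 ARE+/- libraries lay narrowly above WT, as for 14.7% of all genes. Log2 fold changes were 3.12 ± 1.11 for ARE-/- against WT (edgeR adjusted p = 0.108; 3.14 and 0.0229 with DESeq2, which called 14.4% of all genes) and 1.94 ± 1.11 for ARE+/- against WT (adjusted p = 0.447). Without ARE-/- replicate 3 the ARE-/- value was 1.42 (adjusted p = 0.453).

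Kmo, kynurenine 3-monooxygenase (chromosome 1, 175459562 to 175489682, plus strand), measured 2.05, 6.17 and 4.58 CPM in ARE-/-, 2.35, 3.53 and 4.38 in ARE+/-, and 3.97, 3.90 and 4.12 CPM in WT uterus. Ovary levels were 2.28, 3.58 and 1.88 CPM in ARE-/-, 2.69, 1.45 and 1.74 in ARE+/-, and 1.92, 1.99 and 1.91 CPM in WT libraries. The WT libraries lay close together in each tissue, inside the spread of the mutants. For ARE-/- against WT the log2 fold change was 0.10 ± 0.41 in uterus (adjusted p = 0.927) and 0.41 ± 0.33 in ovary (adjusted p = 0.465).

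The receptor gene itself lay between 16.4 and 33.6 CPM in all 18 libraries and was called in no comparison of genotypes. Ahr (chromosome 12, 35547973 to 35585037, minus strand) had 26.9, 28.5 and 32.1 CPM in ARE-/-, 25.1, 23.7 and 33.6 in ARE+/-, and 25.3, 27.0 and 24.9 CPM in WT uterus. Ovary levels were 24.5, 19.4 and 16.4 CPM in ARE-/-, 24.1, 24.5 and 23.4 in ARE+/-, and 26.5, 22.2 and 28.3 CPM in WT libraries. The groups overlapped in both tissues, and the lowest values were those of ovary ARE-/- replicates 3 and 6. Its ARE-/- against WT log2 fold change was 0.18 ± 0.18 in uterus (adjusted p = 0.630) and -0.35 ± 0.15 in ovary (adjusted p = 0.174). Ahr overlaps Gm48236 on the opposite strand by 127 bases; that gene had 9 to 75 counts a library, and without a strand option their shared reads cannot be told apart.

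Among the receptor's targets, Cyp1a1 rose in both tissues of ARE-/- mice, Ahrr in the uterus, and Cyp1b1 and Tiparp had no call against WT over all libraries. Cyp1a1 (ENSMUSG00000032315.7, chromosome 9, 57595211 to 57611107, plus strand) is the textbook readout of the receptor, and its upstream stretch printed above holds 1 core motif. It had 354, 164 and 48 counts in ARE-/-, 14, 8 and 2 in ARE+/-, and 10, 2 and 0 in WT uterus. Its ovary counts were 26, 412 and 36 in ARE-/-, 2, 0 and 14 in ARE+/-, and 2, 0 and 0 in WT libraries. In each tissue every ARE-/- library lay above every ARE+/- and WT library, while ARE+/- and WT overlapped. Among all genes, ARE-/- libraries lay wholly above WT for 12.5% (uterus) and 16.1% (ovary), and wholly above ARE+/- for 4.77% and 6.33%. Within ARE-/- the libraries differed widely, with replicate 1 highest in the uterus and replicate 3 highest in the ovary. Mean levels were 5.07 ± 4.30, 0.175 ± 0.108 and 0.104 ± 0.144 CPM in ARE-/-, ARE+/- and WT uterus, and 4.00 ± 5.60, 0.137 ± 0.194 and 0.0170 ± 0.0295 CPM in ARE-/-, ARE+/- and WT ovary (SD, n = 3 each).

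The log2 fold change of Cyp1a1 in ARE-/- against WT was 5.63 ± 1.15 in uterus (edgeR adjusted p = 0.0279) and 7.64 ± 1.90 in ovary (adjusted p = 0.0403). The fitted ovary value rests on 2 WT counts in all, and the ratio of levels there was 228 for ARE-/- over WT, with a 95% counting interval of 62.9 to 1892. ARE+/- against WT gave 0.83 ± 1.12 in the uterus (adjusted p = 0.812) and, over the same 2 counts, a ratio of 7.57 in the ovary (1.78 to 67.9; edgeR adjusted p = 0.620). ARE-/- against ARE+/- gave 4.80 ± 1.08 in uterus (adjusted p = 0.468; 4.84 and 0.000148 with DESeq2) and 4.88 ± 1.50 in ovary (adjusted p = 0.506). The uterus call was lost without ARE-/- replicate 1 (4.72, adjusted p = 0.0565), ARE+/- replicate 2 (5.62, 0.0548), WT replicate 2 (5.24, 0.0644) or WT replicate 3 (5.04, 0.104), and with the ARE+/- libraries out of the fit (5.61, 0.0723). The ovary call was lost without ARE-/- replicate 3 (5.26, adjusted p = 0.0732), ARE+/- replicate 1 (7.64, 0.0678), or WT replicate 1, 2 or 3 (10.33, 7.12 and 7.11; 0.168, 0.133 and 0.132), without the low-count filter (7.64, 0.114) and with ARE+/- out of the fit (7.64, 0.0569). DESeq2 gave Cyp1a1 no adjusted p for ARE-/- against WT ovary, so the ovary call has no counterpart from that tool. The authors' deposited table gives Cyp1a1 an adjusted p of 3.78e-08 in the uterus, and neither a p nor an adjusted p in the ovary.

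In the ARE-/- uteri, the sums of adipocyte, of erythroid and of smooth muscle markers ran in the same order of replicates as Cyp1a1. The 5 adipocyte markers (Adipoq, Plin1, Cidec, Fabp4 and Lipe, none at 0) summed to 6352, 947 and 510 CPM in the ARE-/- uteri, where Cyp1a1 was 9.82, 3.97 and 1.44 CPM. They summed to 154 to 240 CPM in ARE+/- and 42.9 to 53.4 CPM in WT uterus, while Cyp1a1 overlapped between these genotypes. In the ovary they summed to 691, 1120 and 72.3 CPM in ARE-/-, to 154 to 730 CPM in ARE+/-, and to 112 to 159 CPM in WT libraries. Ovary ARE-/- replicate 6 thus had the lowest adipocyte sum of the 9 ovaries and 0.892 CPM of Cyp1a1, above the 0.359 CPM of the highest ovary of another genotype. Cyp2e1, a monooxygenase gene on the list of liver markers that adipose tissue also expresses, had 953, 86.1 and 105 CPM in ARE-/- uteri, where Alb had 1.66, 0.726 and 0 CPM. The 5 erythroid markers summed to 7257, 1299 and 837 CPM in the ARE-/- uteri, to 119 to 223 CPM in ARE+/- and to 95.9 to 220 CPM in WT uterus. The 4 smooth muscle markers summed to 11930, 3030 and 2723 CPM in the ARE-/- uteri, to 2809 to 3620 CPM in ARE+/- and to 5606 to 6158 CPM in WT uterus. The part of adipose tissue, erythroid cells or smooth muscle in the uterus difference was not tested, nor was that of adipose tissue in the ovary difference.

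**Figure D3:**
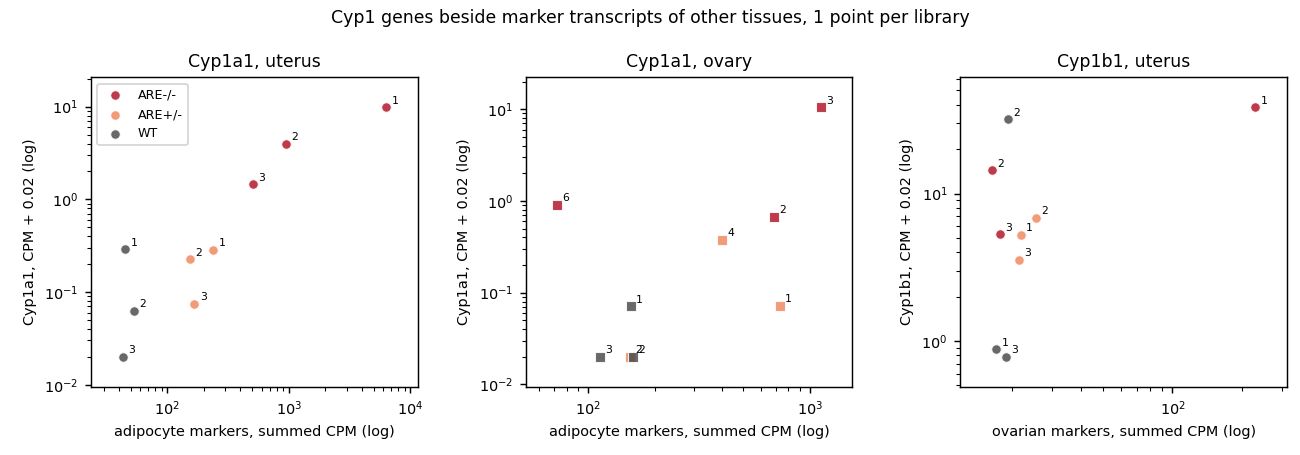
Cyp1a1 against the summed level of 5 adipocyte markers in uterus and ovary, and Cyp1b1 against 6 ovarian markers in uterus, 1 point per library with its replicate number (CPM plus 0.02 on log axes for the Cyp1 genes). In the uterus the 3 ARE-/- libraries have both the highest Cyp1a1 and the highest adipocyte sums, while ovary ARE-/- replicate 6 has raised Cyp1a1 at an adipocyte sum of 72.3 CPM and uterus WT replicate 2 has high Cyp1b1 at an ovarian sum of 19.2 CPM.

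Ahrr, the repressor gene with 3 core motifs in the stretch printed above, rose in ARE-/- uterus with little spread. The gene (ENSMUSG00000021575.17) lies on chromosome 13, 74359237 to 74440450, minus strand. It measured 3.99, 3.14 and 2.51 CPM in ARE-/-, 1.65, 2.55 and 2.32 in ARE+/-, and 0.965, 1.07 and 1.02 CPM in WT uterus. All ARE-/- and all ARE+/- uteri lay above all WT uteri, and the 2 mutant genotypes overlapped at their edge. Of all genes, 12.5% lay wholly above WT in ARE-/- uteri and 15.6% in ARE+/- uteri. The log2 fold change against WT was 1.66 ± 0.34 for ARE-/- (edgeR adjusted p = 0.0285) and 1.09 ± 0.34 for ARE+/- (adjusted p = 0.176). The ARE-/- value kept its size without any 1 library, and the call was lost without ARE+/- replicate 2 (1.65, adjusted p = 0.0597), WT replicate 1 (1.61, 0.155) or WT replicate 3 (1.66, 0.147), without the low-count filter (1.64, 0.0522) and with ARE+/- out of the fit (1.65, 0.0851).

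In the ovary Ahrr measured 1.30, 1.17 and 1.54 CPM in ARE-/-, 1.67, 1.34 and 1.90 in ARE+/-, and 2.10, 2.09 and 0.652 CPM in WT libraries. WT replicate 3 was the lowest and the other WT libraries the highest of the 9, so the groups overlapped (ARE-/- against WT -0.27 ± 0.42, adjusted p = 0.739). The ARE-/- effect on Ahrr in the ovary minus that in the uterus was -1.93 ± 0.54 on the log2 scale, which edgeR's interaction test did not call (adjusted p = 0.149) and DESeq2 did (-1.95, adjusted p = 0.0230). None of the other 9 genes was called for this difference between tissues, where 0.169% of all genes were by edgeR and 2.97% by DESeq2. At an unadjusted p under 0.05 there were 2 of 10, Ahr and Ahrr, where 14.1% of all genes passed. For Ido1 and Cyp1a1 the differences were -0.50 ± 1.39 (adjusted p = 0.923) and 2.01 ± 2.26 (adjusted p = 0.745), so at these standard errors neither equal nor unequal effects can be told.

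Cyp1b1, a monooxygenase of steroid-making and stromal cells as well as a receptor target, was far higher in the ovary than in the uterus. It lies on chromosome 17 (80014323 to 80022490, minus strand). Ovary libraries measured 208, 223 and 280 CPM in ARE-/-, 272, 233 and 215 in ARE+/-, and 302, 303 and 240 CPM in WT libraries. Uterus libraries measured 38.4, 14.3 and 5.27 CPM in ARE-/-, 5.22, 6.85 and 3.53 in ARE+/-, and 0.857, 31.8 and 0.762 CPM in WT libraries. WT replicate 2 was thus 1 of the 2 highest uteri while the other WT uteri were the lowest, and its ovarian marker sum of 19.2 CPM lay within the 16.4 to 25.5 CPM of the uteri other than ARE-/- replicate 1. Over all libraries the log2 fold change of ARE-/- against WT was 0.79 ± 1.26 in uterus (adjusted p = 0.779) and -0.25 ± 0.14 in ovary (adjusted p = 0.304).

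The Cyp1b1 value of the uterus turned on single libraries, WT replicate 2 above all. Without ARE-/- replicate 1 the log2 fold change of ARE-/- against WT was -0.18 (adjusted p = 0.96). Without WT replicate 2 the log2 fold change of ARE-/- against WT was 4.57 (edgeR adjusted p = 0.0241), and without it and ARE-/- replicate 1 it was 3.61 (adjusted p = 0.00745). For ARE+/- against WT it was -1.10 ± 1.27 over all libraries (adjusted p = 0.771), 2.68 without WT replicate 2 (adjusted p = 0.12) and 2.69 without both (adjusted p = 0.0182). Without WT replicate 2 the tissue difference of the ARE-/- effect was -4.81 (adjusted p = 0.0165), against -1.03 ± 1.37 with it (adjusted p = 0.795). Between WT ovary and WT uterus, a comparison added after the levels were seen, Cyp1b1 was higher in the ovary by 4.51 ± 1.12 (adjusted p = 0.0082), from 3.97 to 8.30 with any 1 library left out.

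Tiparp was lower in every ARE-/- and ARE+/- library than in every WT library of its tissue, without passing the test. The gene lies on chromosome 3 (65435831 to 65462939, plus strand). In the uterus it measured 30.5, 32.0 and 25.5 CPM in ARE-/-, 31.3, 31.9 and 28.1 in ARE+/-, and 33.1, 63.7 and 34.4 CPM in WT libraries. In the ovary it measured 68.7, 60.7 and 73.2 CPM in ARE-/-, 70.1, 71.6 and 59.3 in ARE+/-, and 87.9, 75.3 and 78.1 CPM in WT libraries. The gap to the nearest WT library was small in each tissue. Among other cells' transcripts, 4 stromal markers (Col1a1, Col1a2, Pdgfra and Dcn) summed to 4493 to 6737 CPM in ARE-/-, 4629 to 6902 in ARE+/- and 8622 to 14062 CPM in WT uterus, and to 2402 to 6692, 2349 to 4549 and 2041 to 2457 CPM in ARE-/-, ARE+/- and WT ovary. Ovarian markers summed to 1656 to 6534, 3530 to 7307 and 6449 to 9682 CPM in ARE-/-, ARE+/- and WT ovary. No marker of either list was at 0 there, and their part in the Tiparp levels was not tested. Among all genes, ARE-/- libraries lay wholly below WT for 9.8% (uterus) and 14.4% (ovary), and ARE+/- libraries for 12.9% and 11.3%.

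Tiparp had log2 fold changes of -0.58 ± 0.25 in ARE-/- uterus (edgeR adjusted p = 0.241), -0.52 ± 0.25 in ARE+/- uterus (0.395), -0.25 ± 0.11 in ARE-/- ovary (0.167) and -0.26 ± 0.11 in ARE+/- ovary (0.271), each against WT. Without WT replicate 2, the uterus values were -0.21 for ARE-/- (0.525) and -0.15 for ARE+/- (0.71). The gene overlaps 4931440P22Rik on the opposite strand by 223 bases, a gene with 83 to 333 counts a library. In WT mice Tiparp was higher in the ovary than in the uterus by 0.74 ± 0.20 (adjusted p = 0.0119), a call lost without uterus WT replicate 1 (0.58, 0.0655) or 3 (0.59, 0.0665). Kmo was lower in WT ovary than in WT uterus, at -1.19 ± 0.39 on the log2 scale (adjusted p = 0.0333), and that call was lost without any 1 of the 6 WT libraries (adjusted p from 0.0542 to 0.0955). In this comparison of WT tissues 2 of the 10 genes were higher and 1 lower in the ovary, where 13.3% of all genes were higher and 11.9% lower.

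The second question was whether Ido1 and the receptor targets vary together from library to library. Ido1 separated WT from ARE+/- libraries in both tissues, so no correlation with these targets is given over the pooled libraries. Instead each gene was taken as its deviation from the mean of its genotype (log2 CPM, 9 libraries a tissue). None of 8 relations had an exact permutation p under 0.05 by Pearson's r, where 216 orders within genotypes allow a smallest p of 0.00463. In the uterus r was -0.24 for Cyp1a1, -0.67 for Cyp1b1, -0.30 for Ahrr and -0.73 for Tiparp, with Spearman's rho of -0.35, -0.63, -0.23 and -0.68 and two-sided exact p of 0.616, 0.116, 0.486 and 0.0787 for r. Uterine Cyp1a1 was highest in ARE-/- replicate 1 (9.82 CPM) and lowest of the 3 in replicate 3 (1.44 CPM), at the same Ido1 level of 5.38 and 5.39 CPM. Uterus WT replicate 2, with 0 counts of Ido1, deviated by -1.54 in Ido1, 3.48 in Cyp1b1 and 0.609 in Tiparp (log2). These were the lowest Ido1 and the highest Cyp1b1 and Tiparp deviations of the 9 uteri. With 1 library left out, r ranged from -0.781 to -0.252 for Cyp1b1 and from -0.852 to -0.444 for Tiparp.

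In the ovary r with Ido1 was 0.59 for Cyp1a1, 0.24 for Cyp1b1, 0.77 for Ahrr and -0.23 for Tiparp, with rho of 0.56, 0.12, 0.63 and -0.10 and two-sided exact p of 0.0556, 0.616, 0.162 and 0.583 for r. Adjusted over the 8 relations, p was 0.309 to 0.616 for r and 0.383 to 0.852 for rho (exact permutation). Ovary ARE-/- replicate 3 was highest of its genotype in Ido1, Cyp1a1 and Kynu. Without the 2 libraries farthest from the median of Ido1, r was -0.55, -0.08, 0.18 and -0.36 for Cyp1a1, Cyp1b1, Ahrr and Tiparp in the uterus, and 0.85, -0.46, 0.04 and -0.85 in the ovary (exact p from 0.0833 to 0.972). The Ahrr sign in the uterus and the Cyp1b1 sign in the ovary rest on those libraries, and the ovarian Ahrr value on WT replicate 3, which was lowest in both genes.

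**Figure D4:**
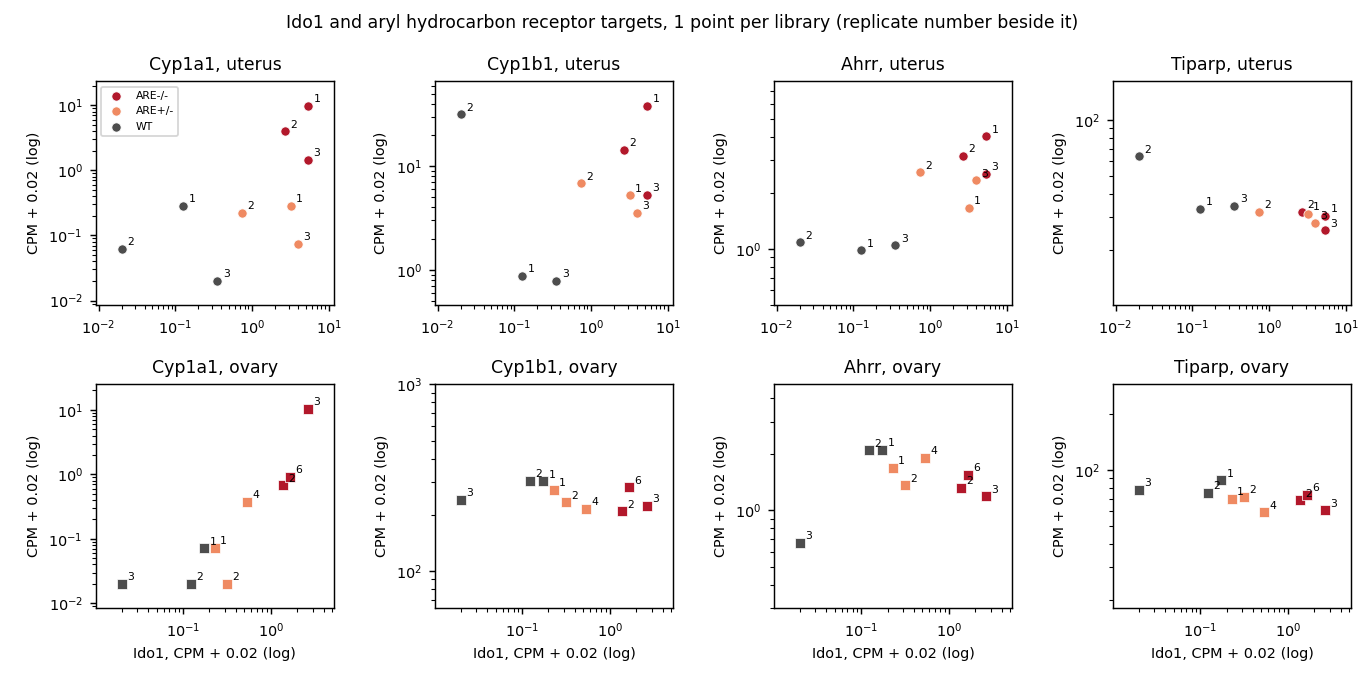
Ido1 against Cyp1a1, Cyp1b1, Ahrr and Tiparp in uterus (top) and ovary (bottom), CPM plus 0.02 on log axes, 1 point per library coloured by genotype with its replicate number. WT libraries lie left of ARE+/- libraries in every panel. Within genotypes none of the 8 relations has an exact permutation p under 0.05 (0.0556 to 0.616).

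Some other genes of tryptophan and kynurenine handling rose in ARE-/- ovary. Of 14 listed genes 12 were tested in each tissue. In ARE-/- against WT ovary 3 rose and 0 fell, where 6.31% of all genes rose and 4.15% fell. The median log2 difference there was 0.33 against 0.02 over all genes. In ARE-/- against WT uterus 0 were called, where 3.75% of all genes were, with a median of 0.24 against 0.04. Wars, the tryptophanyl-tRNA synthetase gene that interferon gamma induces, was 113 ± 3.75, 86.7 ± 7.31 and 60.4 ± 3.53 CPM in ARE-/-, ARE+/- and WT ovary and rose in both mutants (0.90 ± 0.09, adjusted p = 0.000402, and 0.52 ± 0.09, adjusted p = 0.0225). Gpr35, a receptor gene linked to the pathway product kynurenic acid, rose in ARE-/- ovary by 1.57 ± 0.27 (adjusted p = 0.00698). Haao, which encodes the enzyme after kynureninase, rose there by 1.72 ± 0.42 (adjusted p = 0.0285), at 2.55 ± 0.660, 2.70 ± 1.31 and 0.769 ± 0.0366 CPM in ARE-/-, ARE+/- and WT ovary. In the ARE-/- uterus the same 3 genes had values of 0.77 ± 0.22 (Wars, adjusted p = 0.0892), 1.21 ± 0.49 (Gpr35, 0.204) and 1.16 ± 0.43 (Haao, 0.172). In ARE+/- against WT ovary Wars was the 1 gene of the list called, where 1.71% of all genes were. In ARE+/- against WT uterus 0 were, where 1.14% of all genes were. At an unadjusted edgeR p under 0.05 there was 1 in that uterus comparison, where 14.1% of all genes passed. In ARE+/- against WT ovary there were 4, where 15.7% of all genes passed.

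Of 15 other genes of the aryl hydrocarbon receptor, 13 were tested in each tissue. In ARE-/- against WT ovary 2 rose and 0 fell, where 6.31% of all genes rose and 4.15% fell. Among those that rose was Hsp90ab1, a heat shock protein gene, by 0.45 ± 0.10 (adjusted p = 0.0220). In ARE-/- against WT uterus 0 were called, where 3.75% of all genes were. The median log2 difference was 0.22 against 0.04 over all genes in the uterus, and 0.16 against 0.02 in the ovary. In ARE+/- against WT 0 were called in either tissue, where 1.14% (uterus) and 1.71% (ovary) of all genes were. The medians there were -0.161 against 0.00761 over all genes in the uterus, and -0.102 against 0.0196 in the ovary. Listed genes did not share 1 pattern in the uterus. Gsta1 was highest in WT replicate 3 (7.31 CPM, against 6.52 CPM in ARE-/- replicate 1). Scin was highest in WT replicate 2 (14.8 CPM, against 3.94 CPM in ARE-/- replicate 1). Some further target genes, given next, had their highest uterine level in ARE-/- replicate 1. Aldh3a1, an aldehyde dehydrogenase gene, had 123, 5.22 and 1.83 CPM in ARE-/- uteri, against 5.29 to 7.72 CPM in ARE+/- and 1.00 to 3.17 CPM in WT uteri. Nqo1, a quinone reductase gene, had 42.5, 5.85 and 4.31 CPM in the ARE-/- uteri, against 3.14 to 6.01 CPM in ARE+/- and 4.38 to 5.48 CPM in WT uteri. Ugt1a6a, whose reads are shared with Ugt1a6b, had 252, 57.5 and 57.8 CPM in the ARE-/- uteri, against 40.7 to 64.4 in ARE+/- and 35.1 to 41.4 CPM in WT uteri. In the ovary it had 172, 152 and 104 CPM in ARE-/-, 98.5 to 156 in ARE+/- and 80.3 to 90.3 CPM in WT libraries. Its ARE-/- libraries thus lay wholly above WT in both tissues, as for 12.5% (uterus) and 16.1% (ovary) of all genes. Aldh3a1 and Nqo1 overlapped between ARE-/- and WT ovaries. Uterus ARE-/- replicate 1 is the library with 6352 CPM of adipocyte and 229 CPM of ovarian markers, and their part in the uterine levels was not tested. Cyp1a2, the near relative of Cyp1a1, had no count in any library.

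Most listed genes of interferon gamma signalling rose in ARE-/- mice of both tissues. Of 11 listed genes 7 rose in ARE-/- against WT uterus and 8 in the ovary, with 0 falling, where 3.36% and 6.31% of all genes rose. In ARE+/- against WT 5 rose in each tissue, where 1.08% (uterus) and 1.35% (ovary) of all genes rose. Irf1, an interferon-induced transcription factor gene, rose by 1.82 ± 0.21 (adjusted p = 0.00176) and 1.98 ± 0.13 (adjusted p = 2.10e-05) in ARE-/- uterus and ovary. Jak1, Jak2 and Ifngr2 were not called in either tissue.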

How the data were processed

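The authors deposited 1 table per tissue of whole-number read counts per gene; per the file headers, featureCounts 2.0.4 counted reads over GENCODE M32 genes. Its options counted mates singly, let multi-mapping and gene-overlapping reads count for each gene, and set no strand option. Of counts from 1 to 20, 70.9% in the uterus and 72.1% in the ovary were even. Reads were aligned with STAR to mm10, per the submitters' processing notes. GENCODE M32 belongs to a later mouse build, so positions of genes are given only as the files' annotation states them, and RefSeq promoters only on GRCm38.p6. A second deposited table of each tissue holds the authors' p-value and adjusted p-value of a test over genotypes, which were only quoted, and log2 fold changes, which state no contrast and were not used. Its mean signal (normalized count) and its test statistic, a score, both as deposited by the authors, were not used.

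Groups and replicate numbers came from the labels for tissue and genotype and from the sample titles; the submitters' design describes 3 mice for each genotype. All columns of per-sample values were used. The test was edgeR's robust quasi-likelihood F-test (version 4.0.16, R 4.3.3) after filterByExpr and TMM, over the 9 libraries of a tissue, or all 18 for tissue differences, with p-values adjusted by Benjamini-Hochberg over all genes tested. With TMM factors of 0.838 to 1.07, levels are CPM on scaled library sizes, and CPM per kb uses the exon length in the files. Correlations used log2 CPM with a prior count of 2. DESeq2 1.42.0 was the alternative tool. On simulated counts with changes of 2, 4, 8 and 16 fold, the test recovered 8, 48, 62 and 86% of the changed genes in ARE-/- against WT uterus (24277 genes) and 28, 78, 84 and 92% in the ovary (24457 genes). The simulation changed 50 randomly chosen genes per fold, up or down, where 911 uterus and 2558 ovary genes were called in the data. Its rates are therefore not the power of the test for the genes described here. No replicate was a copy of another: between replicates of a group, chi-square divided by its degrees of freedom was 15.17 to 316.2.

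The genes and lists were chosen with earlier results of these data known. Named beside the 10 genes were at most 8 genes a list with the smallest adjusted p for ARE-/- against WT, and the 5 genes per tissue most like Ido1; a few of these are not reported here. Aldh3a1, Nqo1, Ugt1a6a, Gsta1, Scin and Cyp1a2 of the receptor list, and Jak1, Jak2 and Ifngr2 of the interferon list, were named after their values were seen. Alternatives were other tools, scalings, filters, halved counts, a replicate block, 2 genotypes only and each library left out. No paired animals are given by the labels.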

Additional observations from a re-analysis of the deposited data

How the results depend on the processing

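With each of 9 libraries left out in turn, the number of the 10 genes called ranged from 0 to 3 for ARE-/- against WT uterus and from 1 to 2 for ARE-/- against WT ovary, and it was 0 throughout for ARE+/- against WT and ARE-/- against ARE+/- in both tissues. With each of 18 left out it ranged from 0 to 1 for the tissue difference of the ARE-/- effect and from 1 to 3 for WT ovary minus WT uterus. With only the 2 genotypes compared in the fit, 0 were called for ARE-/- against WT uterus and 1 for ARE-/- against WT ovary. The ovary also had 1 without the low-count filter, and 1 with at least 1 CPM required in 3 libraries. With that last filter 6 of the genes were tested, and Cyp1a1 was not among them. DESeq2 called 2 for ARE+/- against WT uterus, 1 each for ARE-/- against ARE+/- uterus and ovary, and 1 for the tissue difference. Without uterus WT replicate 2 and ARE-/- replicate 1, chosen after seeing the data, 4 were called for ARE-/- and 3 for ARE+/- against WT uterus, where 13.3% and 12.7% of all genes were.

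Same-numbered libraries did not deviate together in every pair (correlations of -0.035 to 0.343 over 9 uterus pairs and -0.16 to 0.014 over 5 ovary pairs; a library correlated best with its own number in 13 of 18 uterus and 1 of 10 ovary comparisons), so the numbers were not taken as pairs. Between ARE-/- and ARE+/- uterus all 3 pairs passed 0.1 (0.101, 0.111 and 0.343), and there the block left 0 genes called. With the replicate block, 1 gene was called for ARE+/- against WT uterus (Ido1, 4.27, edgeR adjusted p = 0.0336) and 1 for ARE-/- against WT ovary, where Ido1 had 4.77 (adjusted p = 0.0576); in ARE-/- against WT uterus Ahrr had 1.66 (0.0616). Under the block the sign turned for Kmo in ARE-/- against WT uterus (-0.030), Cyp1b1 in ARE+/- against WT uterus (0.21), Ahrr in ARE-/- and ARE+/- against WT ovary (0.047 and -0.32), Kynu, Ahrr and Tiparp in ARE-/- against ARE+/- ovary (-0.50, 0.37 and -0.053), and Ido2 in the tissue difference (-0.092). In WT ovary minus WT uterus the block gave Cyp1b1 4.17 (0.0582) and Tiparp 0.51 (0.197).

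Other signs turned only for values uncalled with all libraries. Without both doubted uteri, ARE+/- against WT gave 0.28 for Tdo2 and 2.69 for Cyp1b1 (adjusted p = 0.0182), and ARE-/- against ARE+/- gave 0.092 for Kynu. Halved counts gave Kmo -0.0005928 in ARE+/- against WT ovary. With 1 library left out, signs turned within these ranges: uterus ARE-/- against WT, Tdo2 -0.36 to 1.75, Kmo -0.27 to 0.43, Cyp1b1 -0.18 to 4.57; uterus ARE+/- against WT, Tdo2 -1.84 to 0.28, Ahr -0.078 to 0.19, Cyp1b1 -1.65 to 2.68; uterus ARE-/- against ARE+/-, Kmo -0.045 to 0.66, Kynu -0.74 to 0.092, Ahr -0.013 to 0.25, Tiparp -0.12 to 0.024. In the ovary they were, for ARE+/- against WT, Kmo -0.29 to 0.18 and Ahrr -0.37 to 0.24, and for ARE-/- against ARE+/-, Tdo2 -0.73 to 0.16, Kynu -0.50 to 1.64, Cyp1b1 -0.15 to 0.0895 and Tiparp -0.082 to 0.084. For the tissue difference they were Ido1 -1.99 to 0.21, Ido2 -0.64 to 2.30, Tdo2 -1.10 to 1.00, Kmo -0.019 to 0.69, Kynu -0.056 to 2.78, Cyp1a1 -0.35 to 4.65 and Tiparp -0.047 to 0.48. The causes were not tested.

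The relation of Ido1 and Tiparp in the uterus passed an unadjusted exact permutation p of 0.05 with a prior count of 0.5 (r = -0.851, p = 0.0417) and on total counts (r = -0.778, p = 0.0185). So did that of Ido1 and Cyp1b1 in the uterus without ARE-/- replicate 1 or 2 (p = 0.0139 each), and that of Ido1 and Cyp1a1 in the ovary without WT replicate 2 (p = 0.0417), ARE+/- replicate 1 or ARE+/- replicate 2 (p = 0.0278 each), all exact permutation p. Without the 2 libraries farthest in Ido1, r was 0.182 for Ahrr in the uterus and -0.458 for Cyp1b1 in the ovary. With 1 library left out, r with Ido1 ranged in the uterus from -0.420 to 0.0801 for Cyp1a1, -0.781 to -0.252 for Cyp1b1, -0.499 to -0.0136 for Ahrr and -0.852 to -0.444 for Tiparp, and in the ovary from 0.487 to 0.855 for Cyp1a1, -0.442 to 0.480 for Cyp1b1, 0.0456 to 0.898 for Ahrr and -0.669 to 0.0409 for Tiparp. Depth limits Ido1, Ido2, Kynu and Cyp1a1 in WT tissue, where libraries held 0 to 18 counts. Over all results and settings, 1382 kept direction and side of the threshold, 37 lost and 20 gained a call, 57 turned sign and 23 counts moved by over 1.5 times.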
